A study of Mus musculus with 28 samples.

Results

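The miRNAs described here are 10 mature miRNAs known for their enrichment in neurons or oligodendrocytes, measured outside the brain in the blood of aging mice. They were taken by name, as a list set up with earlier results of these data known, and are mmu-miR-9-5p, mmu-miR-124-3p, mmu-miR-128-3p, mmu-miR-128-2-5p, mmu-miR-132-3p, mmu-miR-138-5p, mmu-miR-139-5p, mmu-miR-219a-5p, mmu-miR-326-3p and mmu-miR-338-3p. They make up 10 of the 1966 miRNAs and of the 80668 RNAs of all classes in the deposited tables. All 10 names were found there.

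The blood came from 14 female mice of the inbred strain C57BL/6N, with 3 mice of 2 months, 4 of 6 months, 3 of 8 months, 2 of 12 months and 2 of 18 months. Plasma of each mouse was freed of cells and platelets by centrifugation, and ultracentrifugation then split it into a pellet enriched in extracellular vesicles (EVs), small membrane-enclosed particles that cells release, and the EV-depleted fluid that remained, called plasma in what follows. Each mouse gave 1 small RNA library per fraction, so 28 libraries were compared. The plasma labels of replicates 2 and 3 at 2 months carry 1 shared code, and these libraries were matched to their EV partners by replicate number only.

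A miRNA is cut from a hairpin-shaped precursor, and each arm of the hairpin (5p or 3p) can give a mature miRNA that lowers the output of messenger RNAs matching its seed, bases 2 to 8. miR-9 and miR-124 drive neurogenesis and neuronal identity, miR-128 dampens neuronal excitability, miR-132 is induced by neuronal activity and shapes dendrites, and miR-138 limits dendritic spines. miR-219a and miR-338 promote the differentiation of oligodendrocytes, the myelin-forming cells, miR-326 represses Hedgehog signaling in neural progenitors, and miR-139 lies in the gene of the cyclic nucleotide phosphodiesterase Pde2a. Several of them, miR-128 and miR-139 among them, are also found outside the brain.

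RefSeq, in the mouse build GRCm38.p6, gave a mature sequence for 9 of the 10 names. The 9 sequences have 9 distinct seeds. Those on which the results below turn are shown 5′ to 3′ with the seed in capitals, the pair from the miR-128 hairpins first because 1 of its arms was called between EVs and plasma and the other was not.
miR-128-2-5p: gGGGGCCGaugcacuguaagaga
miR-128-3p: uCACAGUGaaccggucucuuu
miR-139-5p: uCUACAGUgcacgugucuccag
miR-326-3p: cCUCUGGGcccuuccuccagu
miR-219a-5p: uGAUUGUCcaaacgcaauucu

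The 5p sequence of miR-128-2 comes from 1 hairpin, Mir128-2 on the minus strand of chr9:112118636-112118711, in an intron of the protein-coding gene Arpp21 on the same strand (GENCODE M21). This hairpin is shown with the 5p arm in capitals, and the 3p arm lies on its other side.
Mir128-2 hairpin: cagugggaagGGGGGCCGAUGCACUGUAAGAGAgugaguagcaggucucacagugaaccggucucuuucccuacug

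The 3p sequence is shared with a second hairpin, Mir128-1 on the plus strand of chr1:128202361-128202430, in an intron of R3hdm1, so its reads cannot be assigned to 1 locus. The hairpin of miR-139 lies at chr7:101475376-101475443 on the plus strand in an intron of Pde2a, that of miR-326 at chr7:99552269-99552363 on the plus strand in an intron of Arrb1, which encodes a beta-arrestin, and that of miR-338 at chr11:120014765-120014862 on the minus strand in an intron of Aatk. Seeds were shared with other miRNAs of the table for miR-128-2-5p (with mmu-miR-128-1-5p), miR-132-3p (with mmu-miR-212-3p) and miR-326-3p (with mmu-miR-330-5p).

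Library totals ran from 928651 to 23905651 counts for plasma and from 4764338 to 52753818 for EVs, of which 4977 to 82646 and 20063 to 203624 were miRNA counts. The 10 brain-enriched miRNAs together received between 18 and 255.5 counts per plasma library and between 78 and 649 per EV library. Levels are given in RPM, the authors' scaled unit (counts over 1 number that is fixed for a library), and counts are given beside low levels. One read made 1.70 RPM in the shallowest library, plasma replicate 1 at 6 months, and between 0.0722 and 0.664 RPM in all others. No molecular identifiers of reads are named in the sources, and intervals and limits therefore cover counting error alone. In such bulk samples the number of contributing cells or vesicles and the amount of RNA from each cannot be told apart.

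Of the neuronal miRNAs with the most restricted expression, little was detected. miR-9-5p had no read in any of the 14 plasma libraries, which allows a pooled level of up to 0.0352 RPM (3 counts over the pooled libraries), and 4.67 counts in all in EVs, in 5 of 14 libraries. miR-124-3p had 13 counts in 7 plasma libraries and 23 counts in 11 EV libraries, for pooled levels of 0.153 RPM (exact 95% Poisson interval 0.0813 to 0.261) and 0.193 RPM (0.122 to 0.290). miR-138-5p had 13.5 counts in 7 plasma libraries and 25.5 in 10 EV libraries. The highest EV library of these 3 miRNAs reached 0.764 RPM, and the highest plasma library 1.70 RPM, which was 1 read of miR-124-3p in the shallowest library. Among the 9 of the 10 miRNAs with a sequence, counts that are not whole occurred only for those with several hairpins. How reads of several hairpins were counted was not tested.

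A miRNA was called expressed in a fraction where over 10% of its libraries (2 or more of 14) reached 1 RPM. By this rule 6 of the 10 miRNAs passed in plasma and 7 in EVs, beside 304 and 307 of all 1966 miRNAs. The 6 in plasma were miR-128-3p, miR-132-3p, miR-139-5p, miR-219a-5p, miR-326-3p and miR-338-3p, and miR-128-2-5p joined them in EVs. miR-338-3p passed in plasma with 2 libraries, one of them from 1 read in the shallowest library, and without that mouse the plasma count was 5. In EVs miR-132-3p and miR-338-3p also passed with only 2 libraries each. Without replicate 1 at 12 months 6 passed in EVs. At a minimum of 5 RPM, 2 of the 10 remained in each fraction, miR-128-3p and miR-139-5p.

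The most abundant of the 10 was miR-139-5p, at 12.0 ± 5.97 RPM in plasma (SD, n = 14, 1019 counts in all) and 10.2 ± 7.12 RPM in EVs (SD, n = 14, 1259 counts), ranks 69 and 84 by mean RPM among the 1966 miRNAs. miR-128-3p followed with 7.02 ± 5.85 RPM in plasma (550.5 counts) and 6.58 ± 3.46 RPM in EVs (822 counts). Of the counts of the 10 in any library, these 2 miRNAs took 62.7% to 89.4% in plasma and 66.0% to 81.5% in EVs.

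All others lay near or below 2 RPM. miR-326-3p averaged 1.21 ± 0.695 RPM in plasma and 1.67 ± 1.25 RPM in EVs, and miR-219a-5p, of oligodendrocytes, 1.43 ± 0.752 and 1.32 ± 0.977 RPM. miR-132-3p averaged 0.875 ± 0.846 RPM in plasma and 0.682 ± 0.372 in EVs, and miR-338-3p 0.502 ± 0.484 and 0.551 ± 0.429 RPM (SD, n = 14 each). Neighbours in this order overlapped in their ranges over libraries in both fractions, miR-139-5p and miR-128-3p included. miR-128-2-5p averaged 0.206 ± 0.320 RPM in the plasma libraries and 0.910 ± 0.771 RPM in the EV libraries.

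**Figure D1:**
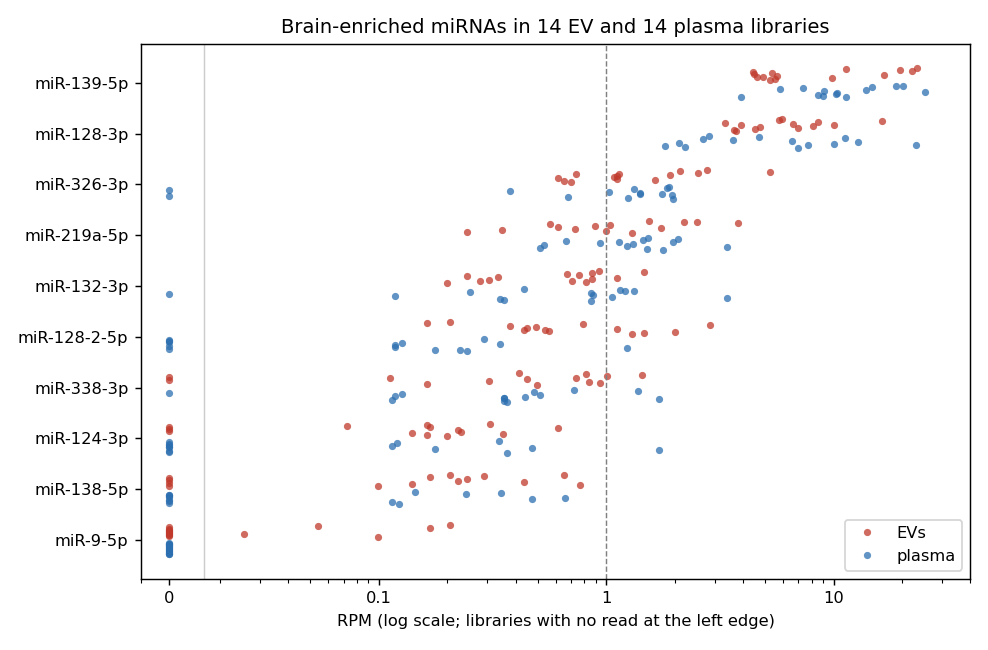
RPM (log scale) of the 10 brain-enriched miRNAs in each of 14 EV (red) and 14 plasma (blue) libraries, 1 point per library, with libraries without a read at the left edge and a dashed line at 1 RPM. miR-139-5p and miR-128-3p lie above 1 RPM in all 28 libraries, whereas no EV library of miR-9-5p, miR-124-3p or miR-138-5p reaches it.

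The lists of other arms and partners and of other brain-enriched miRNAs were lower still. Of 15 other arms and hairpin partners of these miRNAs, 0 were expressed in either fraction, all 15 had a median of 0 RPM over the 28 libraries, and their summed level was at most 1.57 RPM in any library. mmu-miR-212-3p, the cluster partner of miR-132-3p with the same seed, had the most EV counts of that list with 17 (chosen after its values were seen). Of 22 other brain-enriched miRNAs, 0 were expressed in either fraction, and the 2 with the highest medians were mmu-miR-218-5p, with 46.5 counts in EVs and 19 in plasma, and mmu-miR-127-3p, with 22 and 8.

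The levels of the 10 brain-enriched miRNAs summed to a median of 24.3 RPM in plasma and 18.3 RPM in EVs. Summed markers of blood cells and liver were higher, and those of neuroendocrine cells and muscle lower. These sums cover lists of unlike length. The 5 red cell miRNAs had a median summed level of 1118 RPM in plasma (range 687 to 3170) and 1035 RPM in EVs (512 to 4268), led by mmu-miR-451a and mmu-miR-144-3p at medians of 834 and 114 RPM in plasma. The medians of summed levels in plasma and EVs were 203 and 248 RPM for 5 myeloid and platelet miRNAs, led by mmu-miR-142a-3p and mmu-miR-223-3p, and 67.9 and 51.8 RPM for 4 lymphocyte miRNAs, led by mmu-miR-150-5p and mmu-miR-342-3p. They were 42.7 and 66.0 RPM for 3 liver miRNAs, led by mmu-miR-192-5p and mmu-miR-122-5p, and 6.05 and 8.74 RPM for 3 neuroendocrine miRNAs, led by mmu-miR-7a-5p and mmu-miR-375-3p. Muscle miRNAs, led by mmu-miR-1a-3p and mmu-miR-133a-3p, were at 2.36 and 2.39 RPM. The 5 neuronal markers alone summed to medians of 6.88 RPM in plasma and 7.56 RPM in EVs, above the neuroendocrine sum in plasma and below it in EVs. The 2 oligodendrocyte markers summed to 1.81 and 1.76 RPM, below the muscle sum in both fractions. Among the 5 neuronal markers, the 2 highest were miR-128-3p and miR-132-3p, and the defining markers miR-124-3p and miR-9-5p were at or near 0. Which tissue released the reads of the brain-enriched miRNAs was not tested.

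Taken as a share of all miRNA counts, the 10 miRNAs together were lowest in the youngest mice in EVs, but not in plasma. In EVs they took between 19.2 and 20.3 of 10000 miRNA counts in the 3 libraries of 2 months and between 24.8 and 42.1 in the 11 libraries of 6 to 18 months, with no overlap. In plasma they took between 19.4 and 26.4 at 2 months, between 44.3 and 60.5 at 6 months, and between 24.4 and 30.9 at 12 months, so the 2-month range overlapped that of the older mice. Red cell miRNAs ran the other way, with between 23.4% and 31.7% of the miRNA counts in EVs at 2 months and between 9.42% and 29.0% later, ranges that overlapped. Without the red cell miRNAs in the denominator the EV ranges of the 10 were 25.0 to 28.5 at 2 months and 31.6 to 50.8 later, with no overlap. The part of red cells in this pattern was not tested. In RPM the EV sums of the 10 overlapped, with 12.7 to 21.8 at 2 months and 10.6 to 46.9 later. Most of the sum was miR-139-5p and miR-128-3p, at 66.0% to 81.5% of its counts in EVs. Not all of the 10 ran alike, as miR-128-2-5p had 39 EV counts in 3 libraries of 2 months and 3 in 2 libraries of 18 months. The sum of the 10 was chosen after its values were seen and carries no test. How many of all miRNAs expressed in EVs separate 2 months from later ages was not counted. The gap is therefore not shown to be particular to the 10.

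**Figure D2:**
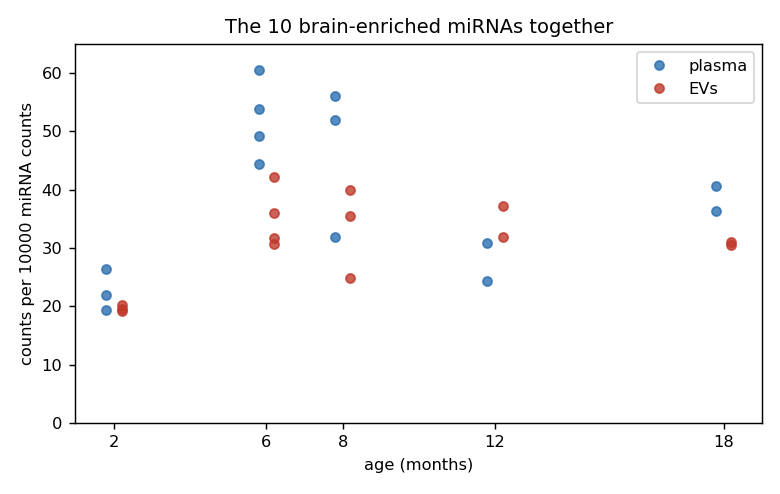
Counts of the 10 brain-enriched miRNAs per 10000 miRNA counts (y axis) against age in months (x axis), 1 point per library, EVs in red and plasma in blue. The 3 EV libraries of 2 months lie between 19.2 and 20.3, under all EV libraries of older mice.

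The first comparison asked whether a miRNA had a higher relative level in the EV-enriched pellet or in the plasma. The counts were scaled within each library, so they do not show which fraction held most copies of a miRNA. In the main test miR-128-2-5p was higher in EVs and miR-139-5p was higher in plasma. The call of miR-139-5p was lost with RPM scaling and with no filter on low values. That of miR-128-2-5p was lost without the mice of uncertain pairing. The other 5 brain-enriched miRNAs tested showed no difference beyond the spread between libraries. The counts of 333 miRNAs that passed the 1 RPM rule in either fraction were compared in edgeR's quasi-likelihood test over all 28 libraries. Age was in the model, and Benjamini-Hochberg adjustment ran over the 333. This main fit had no term for mouse, so its intervals and p-values ignore that each mouse gave both fractions. Of all 333, 18.3% passed an adjusted p of 0.05, 8.11% higher in EVs and 10.2% higher in plasma. Of the 7 brain-enriched miRNAs tested, 1 passed in each direction. The 1 higher in EVs, miR-128-2-5p, reached 1 RPM in 5 EV libraries and 1 plasma library. It thus entered the test through its EV levels alone, which favoured a call in that direction. The median log2 fold change of the 7 was -0.18, beside 0.02 over all 333.

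miR-128-2-5p, the arm of the Arpp21 hairpin, had a read in all 14 EV libraries and in 9 of 14 plasma libraries, with 104 counts against 19 in all. In EVs it was at 1.29, 1.46 and 2.00 RPM at 2 months, at 0.559, 0.536, 0.434 and 1.12 RPM at 6 months, at 0.447, 0.489 and 0.378 RPM at 8 months, at 2.86 and 0.794 RPM at 12 months and at 0.162 and 0.206 RPM at 18 months (replicates in order). In plasma 5 libraries had no read, 8 lay between 0.118 and 0.342 RPM, and replicate 2 at 6 months stood apart at 1.24 RPM (7 counts). It was thus higher in EVs in 12 of 14 mice, although the ranges of the fractions overlapped. The exceptions were replicate 2 at 6 months and replicate 2 at 18 months.

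For miR-128-2-5p the EV over plasma log2 fold change came to 1.62 (standard error 0.44, adjusted p = 0.00891 in edgeR's test). The pooled levels were 0.872 RPM in EVs (exact 95% Poisson interval 0.713 to 1.06) and 0.223 RPM in plasma (0.134 to 0.348). It entered the test only through its EV levels, since it was not expressed in plasma by the 1 RPM rule, so its being tested already favoured a difference. The adjusted p was 0.00431 with no filter on low values (over 1733 miRNAs), and it was 0.0690 (log2 fold change 1.42) without the 2 mice of uncertain pairing. With each mouse left out in turn it lay between 0.000458 and 0.0261.

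The 3p arm was not called. miR-128-3p ranged from 1.82 to 23.0 RPM in plasma with a median of 5.65, and from 3.34 to 16.3 RPM in EVs with a median of 5.84. Its highest plasma value, 23.0 RPM, was 13.5 counts in the shallowest library. It was higher in EVs in 8 of 14 mice, the ranges overlapped, and its log2 fold change was -0.18 (95% interval -0.85 to 0.48, adjusted p = 0.763 in edgeR's test). The standard error was 0.33. With mouse as a block in that test, the log2 fold change was -0.05 with a smaller standard error of 0.13 (adjusted p = 0.804).

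For every 100 counts of miR-128-3p there were 12.7 counts of miR-128-2-5p in the pooled EV libraries and 3.45 in the pooled plasma libraries. The log2 ratio of 5p to 3p, with 1 read added to each, averaged -2.87 in EVs and -3.87 in plasma, a difference of 1.00 ± 1.14 (SD, n = 14 mice), with the EV library on top in 12 of 14 mice. Adding 0.5 or 2 reads instead gave differences of 1.39 and 0.62. This ratio was formed after both arms had been seen and is given as a description, with no test. Because the 3p reads come from a pair of hairpins, it is not a ratio of arms of Mir128-2 alone. The 5p arm of the other hairpin, mmu-miR-128-1-5p, was not expressed in either fraction.

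**Figure D3:**
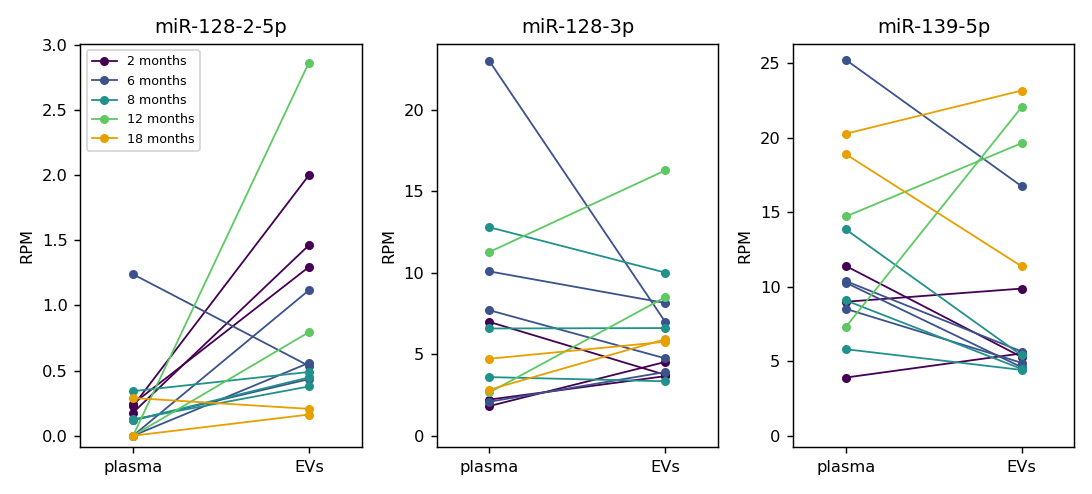
RPM (y axis) of miR-128-2-5p, miR-128-3p and miR-139-5p in plasma and EVs, with a line joining the libraries of each of 14 mice, colored by age. Lines rise from plasma to EVs in 12 of 14 mice for miR-128-2-5p, in 8 for miR-128-3p and in 5 for miR-139-5p.

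miR-139-5p, the most abundant, lay on the plasma side. In plasma it was at 11.4, 3.90 and 8.99 RPM at 2 months, at 8.51, 10.3, 10.4 and 25.2 RPM at 6 months, at 9.08, 13.8 and 5.80 RPM at 8 months, at 7.30 and 14.7 RPM at 12 months and at 18.9 and 20.3 RPM at 18 months. In EVs it was at 5.28, 5.52 and 9.87 RPM at 2 months, at 4.89, 4.59, 5.65 and 16.7 RPM at 6 months, at 4.47, 5.38 and 4.41 RPM at 8 months, at 22.1 and 19.6 RPM at 12 months and at 11.4 and 23.2 RPM at 18 months. It was higher in plasma in 9 of 14 mice, all 4 mice of 6 months and all 3 of 8 months among them, and both mice of 12 months had more in EVs. The ranges of the fractions overlapped.

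For miR-139-5p the EV over plasma log2 fold change came to -0.61 (standard error 0.16, adjusted p = 0.00612 in edgeR's test). This value depended on the scaling. edgeR's TMM normalization balances the miRNAs of the libraries, whereas under RPM scaling the 333 miRNAs had a median of 0.28, against 0.02 under TMM, and with it miR-139-5p was at -0.32 (adjusted p = 0.459). With no filter on low values it was at -0.46 (adjusted p = 0.309). The adjusted p lay between 0.000799 and 0.459 over the settings other than leaving out 1 mouse, and between 0.00581 and 0.0403 with each mouse left out.

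**Figure D4:**
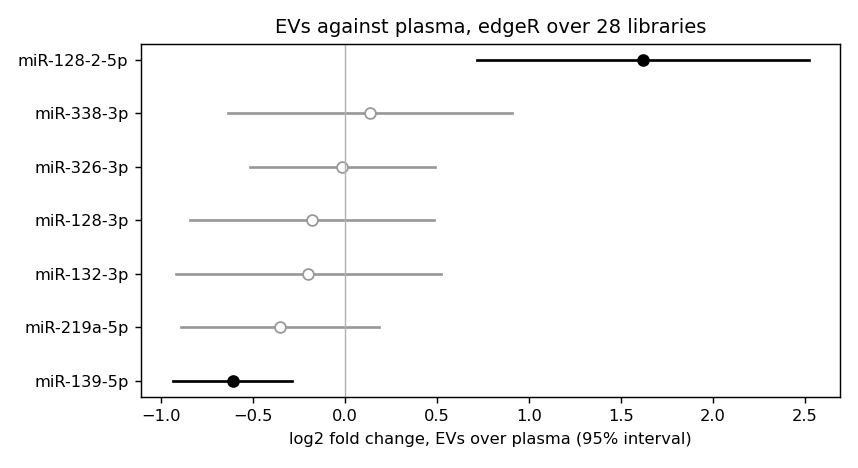
log2 fold change of EVs over plasma (x axis) with its 95% interval for the 7 brain-enriched miRNAs tested by edgeR over 28 libraries, filled where the adjusted p was under 0.05. miR-128-2-5p lies at 1.62 and miR-139-5p at -0.61, and the other 5 intervals include 0.

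The other intervals left room for sizable differences in both directions. The oligodendrocyte miRNAs miR-219a-5p and miR-338-3p had log2 fold changes of -0.35 (95% interval -0.89 to 0.19) and 0.14 (-0.64 to 0.91). The activity-induced miR-132-3p was at -0.20 (-0.92 to 0.52) and miR-326-3p at -0.01 (-0.52 to 0.49). Their adjusted p were 0.386, 0.845, 0.759 and 0.992 in edgeR's test. Among the marker lists, mmu-miR-486a-5p and mmu-miR-486b-5p of red cells were lower in EVs (log2 fold changes -0.77 and -0.73, adjusted p = 0.00588 and 0.00777), these 2 being near-identical copies, and mmu-miR-142a-3p of blood cells was higher in EVs (0.77, adjusted p = 0.00160). The other 3 red cell miRNAs passed in neither direction. The part of such cells in the values of miR-139-5p and miR-128-2-5p was not tested.

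The second comparison asked how levels ran with age in each fraction, since the study followed circulating miRNAs over the lifespan. None of the brain-enriched miRNAs passed the test. Of 7 tested in EVs, 0 passed an adjusted p of 0.05 in edgeR's test of the age slope, beside 0.326% of all 307 miRNAs. An unadjusted p under 0.05 was reached by 3 of the 7, beside 37 of all 307. DESeq2 likewise called 0 of the 7. Of 6 tested in plasma, 0 passed, beside 0% of all 304, and DESeq2 called 0. There 0 of the 6 reached an unadjusted p under 0.05, beside 47 of all 304. The median slope was 0.0281 log2 units per month over the 7 in EVs and 0.0208 over the 6 in plasma, beside 0.00136 and -0.00193 over all miRNAs tested.

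The 3 miRNAs in EVs with an unadjusted p under 0.05 were miR-128-2-5p, miR-139-5p and miR-326-3p. The slope of miR-128-2-5p was -0.146 log2 units per month (standard error 0.0401, adjusted p = 0.0789 in edgeR's test), with 39 counts in the 3 libraries of 2 months and 3 counts in the 2 libraries of 18 months. The levels did not fall evenly, since both libraries of 12 months, with 17 and 11 counts, lay above all 3 libraries of 8 months. Without replicate 1 at 12 months the slope was -0.20 and passed (adjusted p = 0.00174), and without replicate 2 at 18 months the adjusted p was 0.443. In plasma, with at most 7 counts per library, it did not pass the filter, and with no filter its slope was -0.0840 (adjusted p = 0.786 in edgeR's test).

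The slope of miR-139-5p in EVs was 0.0609 log2 units per month (standard error 0.0198, adjusted p = 0.146 in edgeR's test). Its EV levels at 12 and 18 months, 11.4 to 23.2 RPM, lay above 9 of the 10 libraries of 2 to 8 months, and the exception was replicate 4 at 6 months at 16.7 RPM. That mouse was also highest in plasma, at 25.2 RPM. Without it the adjusted p of the EV slope was 0.0501 in edgeR's test, the lowest with any single mouse left out. Without the mice of 18 months the slope was 0.0572 and its adjusted p 0.747.

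miR-326-3p in EVs lay between 2.11 and 5.27 RPM in the 4 libraries of 12 and 18 months and between 0.612 and 1.90 RPM in the 10 libraries of 2 to 8 months, with no overlap. Of all 307 miRNAs expressed in EVs, 5.54% were separated in that way, and miR-326-3p was the only one of the 10. The highest library was replicate 2 at 12 months with 73 counts, and the others had between 4 and 27. The slope was 0.0683 log2 units per month (standard error 0.0296, adjusted p = 0.385 in edgeR's test). In plasma the levels were 1.96, 1.24 and 0.683 RPM at 2 months and 1.84 and 1.88 RPM at 18 months, they overlapped over all ages, and 0 of the 10 miRNAs were separated, beside 0.658% of all 304. This split of ages was chosen after the values were seen.

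miR-219a-5p in EVs ran alongside, with 3.79 and 2.20 RPM at 12 months and 2.52 and 1.54 RPM at 18 months, and between 0.244 and 1.74 RPM in younger mice, an overlap by replicate 3 at 6 months. Marker miRNAs of several other cells were high in the same EV libraries. The summed liver miRNAs lay between 126 and 179 RPM at 12 and 18 months and between 19.2 and 243 RPM before, and the myeloid and platelet miRNAs between 377 and 789 RPM and between 159 and 456 RPM. The part of these cells in the values of miR-326-3p, miR-139-5p and miR-219a-5p was not tested.

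**Figure D5:**
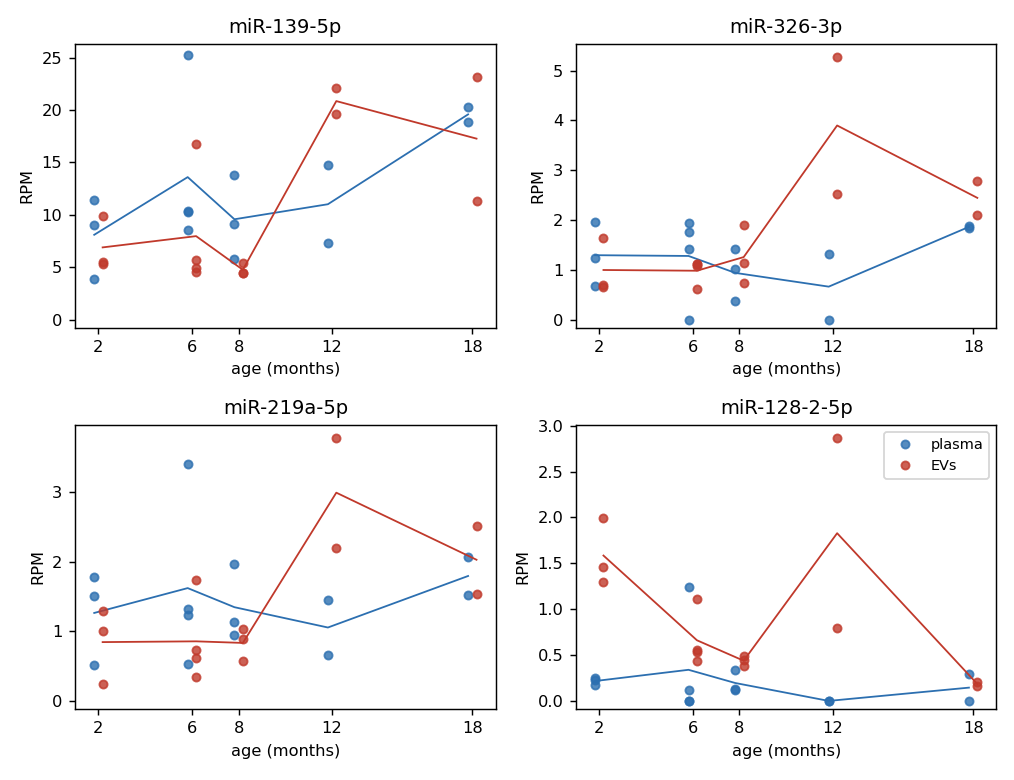
RPM (y axis) against age in months (x axis) for miR-139-5p, miR-326-3p, miR-219a-5p and miR-128-2-5p, 1 point per library and lines through the means of each age, EVs in red and plasma in blue. In EVs miR-326-3p lies above 2 RPM in all 4 libraries of 12 and 18 months and below it in all younger ones.

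The study's measure of an age trend, Spearman's rho, was computed from RPM as well. In EVs 4 of the 7 expressed miRNAs had a rho over 0.5 or under -0.5, and in plasma 0 of 6, beside 11.1% of all 307 and 8.55% of all 304 miRNAs. On the TMM scale they were 3 of 7 and 0 of 6, beside 11.4% and 15.1%. In EVs the median slope of all miRNAs was 0.0515 log2 units per month under RPM scaling, against 0.00136 under TMM. The highest rho was miR-326-3p in EVs with rho = 0.75 (permutation p = 0.00293, two-sided with 100000 resamples, adjusted p = 0.538 over 307 miRNAs) and Pearson's r = 0.60 (permutation p = 0.0247, adjusted p = 0.228). Without the 2 mice of 18 months, the farthest from the median age, rho was 0.64 and r was 0.67. For miR-219a-5p in EVs rho was 0.58 and r was 0.60 (permutation p = 0.0312 and 0.0233, adjusted p = 0.538 and 0.227), and 0.43 and 0.63 without those mice.

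For miR-128-3p in EVs rho was 0.50 and r was 0.36 (permutation p = 0.0696 and 0.210, adjusted p = 0.538 and 0.464), and 0.62 and 0.72 without the mice of 18 months. For miR-128-2-5p rho was -0.56 and r was -0.33 (permutation p = 0.0389 and 0.250, adjusted p = 0.538 and 0.50). Without those 2 mice they were -0.30 and -0.02, so this relation rested on them. On the TMM scale in place of RPM, rho was 0.69 for miR-139-5p, against 0.40 in RPM, and 0.18 for miR-128-3p, against 0.50. After adjustment over all expressed miRNAs none of the 13 rho values of the brain-enriched miRNAs passed in either fraction.

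The last comparison asked whether a slope on age differed between EVs and plasma. Of the 7 tested, 0 passed in edgeR's test of the interaction, beside 0% of all 333, and all 7 had an adjusted p of 0.997. At an unadjusted p under 0.05 there were 0 of the 7, beside 11 of all 333, and DESeq2 called 0. The EV and plasma slopes of miR-139-5p and miR-326-3p are therefore not shown to differ.

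For the 3 most abundant members, the miRNAs with the most similar levels were listed in each fraction. By Spearman's rho of log2 CPM over 14 libraries, miR-139-5p was most like mmu-miR-29b-3p (0.93), mmu-miR-29c-3p (0.91) and mmu-miR-24-3p (0.88) in EVs, and most like mmu-miR-29a-3p (0.84), mmu-miR-27b-3p (0.82) and mmu-miR-1962 (0.77) in plasma. miR-128-3p was most like mmu-miR-328-3p (0.92), mmu-miR-191-5p (0.90) and mmu-miR-466d-3p (0.89) in EVs, and most like mmu-miR-669a-3p (0.91), mmu-miR-669o-3p (0.91) and mmu-miR-328-3p (0.89) in plasma. miR-326-3p was most like mmu-miR-221-3p (0.83), mmu-miR-500-3p (0.82) and mmu-miR-350-3p (0.82) in EVs, and most like mmu-miR-297a-3p (0.74), mmu-miR-297b-3p (0.72) and mmu-miR-297c-3p (0.72) in plasma. The miR-297, miR-466 and miR-669 names belong to repeated, near-identical copies whose counts are uncertain. These values describe libraries that share age, depth and normalization, and were the highest among the 304 miRNAs expressed in plasma and the 307 in EVs.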

How the data were processed

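Small RNA libraries of EVs and plasma from 14 mice were grouped by the fraction and age in the submitters' labels. The authors deposited estimated counts, not normalized, and 46 miRNAs had counts that were not whole. The same values were given as an RPM signal, in which the authors divided each count by 1 number per library that is not its total. The study's methods name Bowtie and miRBase without saying that this covers these libraries, and refer to earlier work for the EV data. For these libraries the meaning of that number, the aligner and the annotation: not given in the sources used here. The submitters' processing notes name mm10 and R 4.0.4. Rounded counts were tested with edgeR 4.0.16 (TMM over miRNAs, glmQLFit, glmQLFTest, limma 3.58.1, R 4.3.3) at a threshold of 0.05 after Benjamini-Hochberg adjustment over all miRNAs that reached 1 RPM in over 10% of libraries. DESeq2 1.42.0 was the other tool, and the scripts were tested on simulated data. Other steps ran in Python 3.11.15 (pandas 2.3.3, numpy 2.4.6) and figures in matplotlib 3.10.9.

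EV and plasma libraries pair by mouse, as each animal gave both, and after subtracting age means their deviations correlated at between 0.0306 and 0.627 over 278 miRNAs within a mouse. The main fit of fractions had no term for mouse. The fit with mouse as a replicate block called the same number of brain-enriched miRNAs, 2, in the comparison of fractions. Its adjusted p in edgeR's test was 0.00653 for miR-128-2-5p and 0.000799 for miR-139-5p. The labels give no sequencing batch. Libraries with few counts limit the precision, since 1 plasma library held under 2000000 counts.

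The 10 miRNAs and the marker lists were chosen with earlier results of these data known. Named miRNAs are all 10, those of the lists called in a comparison or among the 2 highest medians of a list, and the 3 most correlated with each of the 3 most abundant of the 10 in each fraction. Alternatives were DESeq2, RPM scaling, other filters, other codings of age, the block by mouse, and leaving out single mice, the 18-month mice, the uncertain pairs or shallow libraries.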

Additional observations from a re-analysis of the deposited data

Results flagged for a closer look

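In groups of 4 libraries, which here means the mice of 6 months, a library was singled out when its distance to the nearest other library was a large share of the group's range (Dixon's test at 95%). This singled out 6 of the 20 combinations of miRNA and fraction, 4 of them among expressed miRNAs. Chance nominally singles out about 1 in 20 groups, a rate that does not hold for ties and single reads, and 15.8% of 609 combinations of expressed miRNAs and fractions were singled out in these data. miR-139-5p stood apart in replicate 4 in both fractions, at 25.2 RPM in plasma (the others between 8.51 and 10.4) and 16.7 RPM in EVs (the others between 4.59 and 5.65). miR-128-2-5p stood apart in plasma replicate 2, at 1.24 RPM from 7 counts, with the others at most at 0.118 RPM. miR-338-3p stood apart in plasma replicate 1, the shallowest library, at 1.70 RPM from 1 count. miR-326-3p stood apart in EV replicate 2 on the low side, at 0.612 RPM with the others between 1.09 and 1.12. miR-9-5p was at 0.0255 RPM in EV replicate 2 from 0.333 counts and at 0 in the others.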

How the results depend on the processing

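Of the 2 brain-enriched miRNAs called between EVs and plasma, 2 were called with DESeq2, with the replicate block by mouse and with each mouse left out (2 to 2). The number was 1 in the following settings. Only miR-128-2-5p was called with RPM scaling and with no filter on low values. Only miR-139-5p was called without the mice of uncertain pairing. The same held with 1 RPM required in at least 50% of libraries, a filter under which miR-128-2-5p was not tested. miR-139-5p was at -0.32 with RPM scaling and -0.46 with no filter, and miR-128-2-5p at 1.42 without the uncertain mice. miR-326-3p changed sign, to 0.0205 with DESeq2, 0.257 with RPM scaling, 0.103 with no filter, 0.0140 with the block, 0.0198 without age and 0.0303 without the uncertain mice, and between -0.10 and 0.12 with each mouse left out. miR-338-3p was at -0.00697 with the block. An alternative chosen after seeing the data, leaving out replicates 1 and 4 of 6 months together, kept 2 calls (1.47 for miR-128-2-5p, -0.66 for miR-139-5p). For the age trend in EVs 0 to 1 were called with each mouse left out. The number over 0.5 or under -0.5 in rho in EVs fell from 4 to 2 without the mice of 18 months, and rho in plasma without them was -0.0869 for miR-219a-5p and -0.0615 for miR-338-3p. At a minimum of 5 RPM 2 were expressed in each fraction, and with 1 RPM in at least 50% of libraries 4 in EVs. Apart from the settings given, the causes were not tested. Depth limits the low miRNAs, as 8 of the 10 had a median of at most 9.5 counts per library in both fractions.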

Other observations

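The 9 mature sequences differed widely in base composition. G and C made up 66.7% of miR-326-3p and 60.9% of miR-128-2-5p, which 7.06% and 19.0% of 269 expressed miRNAs with a sequence equalled or exceeded, and 34.8% of miR-9-5p. The median was 54.5% over the 23 miRNAs with a sequence of the 27 called higher in EVs, 60.9% over the 27 with a sequence of the 34 called higher in plasma and 47.6% over all 269. Counts that were not whole occurred in 21 of 28 libraries for miR-128-3p and in 16 for miR-219a-5p, each with 2 hairpins, and in 0 for miR-128-2-5p, miR-139-5p and miR-326-3p, each with 1.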
